A study of Mus musculus with 9 samples.

Results

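The cleavage, polyadenylation and deadenylation factors are the proteins that cut a pre-mRNA, add its poly(A) tail, bind the tail and later shorten it. They were examined as a fixed list of 40 genes, and every probe set annotated to exactly 1 of these genes was taken, with no filter on level. The arrays held 74 such probe sets for 33 of the 40 genes, out of 22626 probe sets and 12393 named genes in all. No probe set was assigned to Sympk, Cpsf6, Ints2, Ints10, Cnot1, Cnot10 or Pan3 alone, and these 7 genes are not analysed here. Of the 74 probe sets, 58 lay above the background limit of 31.2 intensity units on all 9 arrays and 5 on none. That limit is the highest value of the Bacillus control probe sets, which match no mouse RNA.

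RNA came from RAW 264.7, a mouse macrophage line, in 3 groups of 3 arrays. One group was untreated, the second received lipopolysaccharide (LPS, a bacterial cell wall component that activates macrophages) at 100 ng/ml for 18 h, and the third was labelled as overexpressing CstF-64 constitutively. The Cstf2 gene encodes CstF-64, the RNA-binding subunit of the cleavage stimulation factor, and the comparisons ask how LPS and this overexpression alter the macrophage transcriptome. The sources used here do not give the construct, its promoter or whether the population was a clone or a pool. Without a vector-only population among the 3 groups, CstF-64 and other differences between the populations cannot be told apart. Nothing in the labels says that the 3 arrays of a group came from separate cultures, so a p-value here reflects the spread of these 9 samples and that spread may be technical.

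The 3' end of most mRNAs is made in one coupled reaction. The cleavage and polyadenylation specificity factor (CPSF) recognises the AAUAAA signal and cuts the transcript, cleavage factors I and II help to choose and complete the cut, and a poly(A) polymerase adds the tail. Integrator makes the 3' ends of small nuclear RNAs and also ends transcription early at many protein-coding genes. In the cytoplasm the CCR4-NOT complex, PAN2-PAN3 and PARN remove the tail again, which is how many short-lived cytokine mRNAs of activated macrophages are kept in check.

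Of 9 macrophage marker genes, 8 read above background on all 9 arrays and Mrc1 on 1 array. Their summed intensity was 13415.5 to 18248.7 in untreated cells, 18572.2 to 20656.8 after LPS and 14207.3 to 17833.9 in the arrays labelled CstF-64. Single markers differed within these sums. After LPS 3 rose (Adgre1, Itgam and Cd14) and 1 fell (Csf1r) at a limma adjusted p under 0.05. None passed in the arrays labelled CstF-64 against untreated cells. There Adgre1 read 230.6, 209.5 and 222.8, against 416.3, 608.1 and 507.5 in untreated cells (log2 change -1.15, limma adjusted p = 0.0777). Markers of other cell types above background on at least 1 array were 0 of 5 for T cells, 2 of 4 for B cells, 2 of 5 for fibroblasts (with Col1a2 on all 9) and 3 of 4 for granulocytes. The fibroblast markers summed to 101.2 to 122.5 in untreated cells, 148 to 163.5 after LPS and 97.3 to 119.6 in the arrays labelled CstF-64, and the granulocyte markers to 66.2 to 80.2, 85 to 138 and 68.3 to 103. Among them Dcn rose after LPS, to 34.4, 46.4 and 61.7 from values below background (adjusted p = 0.0011), and S100a8 rose to 22.9, 35.0 and 41.3 (adjusted p = 0.0222). All 6 LPS response genes rose after LPS. All 4 measured cell division genes fell after LPS, from a summed intensity of 3526.3 to 3775.2 to one of 337.6 to 560.7, and they summed to 3718 to 4091.2 in the arrays labelled CstF-64. Array medians were 42.75 to 49.3 after LPS, 52.3 to 52.7 in untreated cells and 51.1 to 54.2 in the arrays labelled CstF-64. The part of the marker, cell division and median differences in the changes of the factors was not tested. LPS array 1 correlated least with its own group (mean r = 0.966 across probe sets), and CstF-64 array 1 had a mean r of 0.975. Cstf2 itself read 397.8, 363.1 and 372.2 in untreated arrays 1 to 3 and 317.9, 361.5 and 394.5 in the arrays labelled CstF-64, a log2 change of -0.08 (limma adjusted p = 1.00). The measured transcript therefore did not bear out the label, and whether its probes match the construct was not tested.

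After LPS, most of the factors read lower, but few of them passed the test. Taking for each gene its brightest probe set, Ssu72 and Ints12 rose, and Pabpc4, Ints1, Parn and Cpsf1 fell, at a limma adjusted p under 0.05 over all 22626 probe sets. These are 2 genes higher and 4 lower of 33, beside 6.67% of all named genes called higher and 10.4% called lower in the same comparison. The counts are near that background. A log2 change below 0 was found for 26 of the 33 genes, and their median change was -0.25, beside -0.03 over all 12393 genes. The share of all genes below 0 was not counted. Those 12393 genes were not filtered on level. Among the 13592 probe sets with a mean above background, the median was -0.11 and 2666 were called lower. The median of the factors was -0.25 there too, but it could not differ. That filter removed none of the 33 brightest probe sets and alters no log2 change. The groups did not overlap for 12 genes that were lower and 3 that were higher after LPS, beside 20.6% and 13.3% of all genes. Centring each array on its median moved the median of all probe sets from -0.04 to 0.12, and the median of the factors to -0.09 with 20 of 33 below 0. Under that centring Pabpc1 was called higher as well, and Cpsf1 and Parn were no longer called. The share of higher probe sets among all probe sets called after LPS also depended on the scaling, with 35.71% as deposited, 46.2% after quantile normalization and 60.49% after centring.

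**Figure D1:**
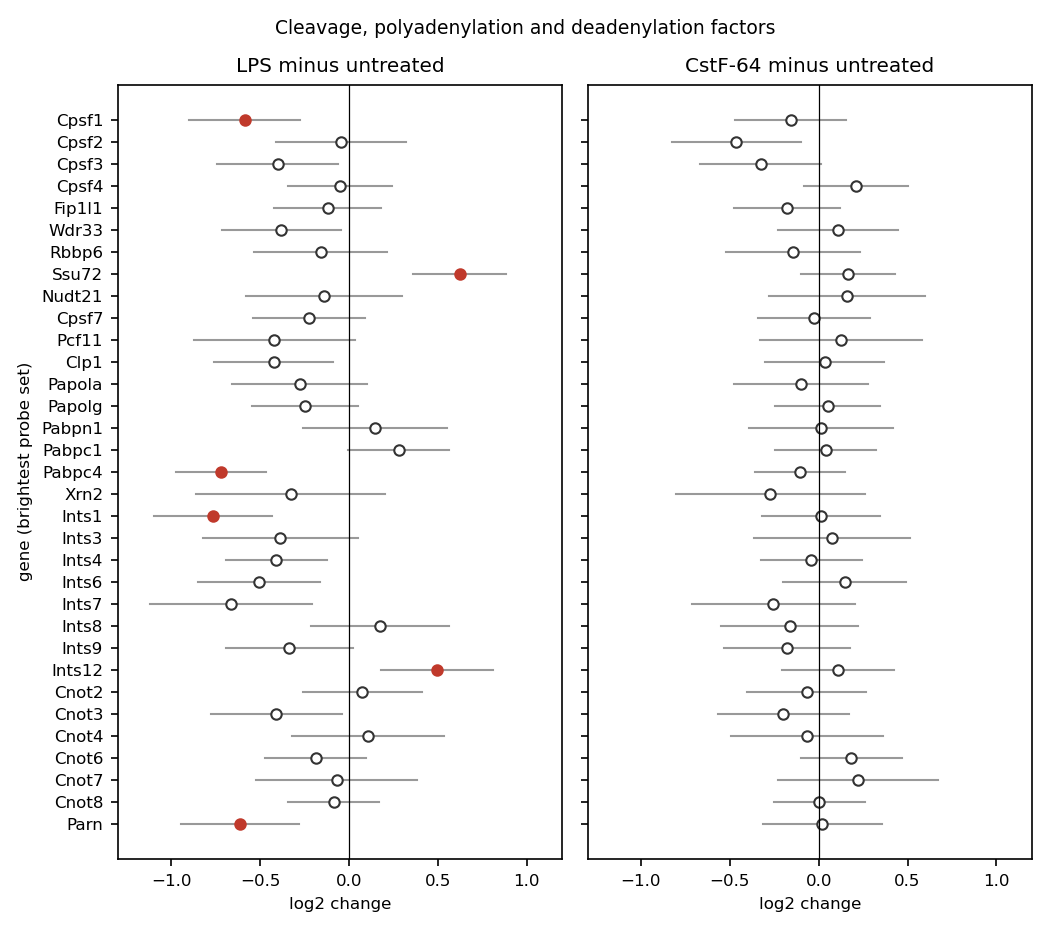
Log2 change on the log2(intensity + 13) scale, with its 95% confidence interval, for the brightest probe set of each of the 33 factors, in LPS against untreated cells and in arrays labelled CstF-64 against untreated cells. After LPS 26 of 33 genes lie below 0 and 6 are called, whereas in the arrays labelled CstF-64 none is called.

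Among the CPSF subunits and their partners, the largest subunit fell and a phosphatase bound to the complex rose. Cpsf1, which encodes the scaffold subunit of CPSF, read 588.1, 585.1 and 516.1 in untreated cells, 336.7, 392.9 and 382.6 after LPS, and 610.1, 471.5 and 441.0 in the arrays labelled CstF-64. All LPS arrays lay below all arrays of both other groups. Its log2 change after LPS was -0.59 (SE 0.14, 95% interval -0.90 to -0.28, limma adjusted p = 0.0177). The call was lost without untreated array 1 (adjusted p = 0.0582) or untreated array 2 (adjusted p = 0.0680), and after median centring (adjusted p = 0.0908).

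Ssu72 encodes a phosphatase that acts on the C-terminal domain of RNA polymerase II and binds symplekin. It read 414.1, 361.1 and 454.8 in untreated cells, 611.4, 631.1 and 666.7 after LPS, and 478.9, 482.7 and 420.1 in the arrays labelled CstF-64. The LPS arrays stood above all 6 others, and the other groups overlapped. Its log2 change after LPS was 0.62 (SE 0.12, 95% interval 0.36 to 0.89, limma adjusted p = 0.0058), and it was called under every alternative run.

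The other 6 members of this role were not called by their brightest probe sets. Cpsf3, which encodes the endonuclease that makes the cut, read 410.7, 352.7 and 337.6 in untreated cells, 217.0, 312.1 and 303.4 after LPS, and 297.7, 267.3 and 303.0 in the arrays labelled CstF-64. Every untreated array was above every other array, but the log2 changes of -0.40 after LPS (adjusted p = 0.110) and -0.33 with the CstF-64 label (adjusted p = 0.804) did not pass. Wdr33, which with Cpsf4 contacts the AAUAAA signal, changed by -0.38 (adjusted p = 0.123), and Cpsf4 by -0.05 (adjusted p = 0.862). Rbbp6, needed for the cut, changed by -0.16 (adjusted p = 0.610). Cpsf2, an inactive relative of the endonuclease, and Fip1l1, which brings poly(A) polymerase to the complex, changed by -0.05 (adjusted p = 0.905) and -0.12 (adjusted p = 0.635).

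Cleavage factors I and II and the poly(A) polymerases had no gene called by its brightest probe set. Nudt21, the subunit of cleavage factor I that binds UGUA, read 1031.4, 723.6 and 628.1 in untreated cells and 889.1, 591.2 and 664.8 after LPS, so the groups overlapped (log2 change -0.14, adjusted p = 0.718). Its partner Cpsf7 changed by -0.23 (adjusted p = 0.342). In cleavage factor II, Clp1, an RNA kinase, read 159.4, 142.6 and 132.9 in untreated cells and 125.6, 105.3 and 85.9 after LPS. The groups did not overlap, but the log2 change of -0.42 missed the threshold (adjusted p = 0.0854), and without LPS array 1 it passed. Papola, the main nuclear poly(A) polymerase, changed by -0.28 (adjusted p = 0.330). Papolg, a related nuclear polymerase, read 87.1, 92.2 and 86.8 in untreated cells and 77.9, 72.6 and 67.8 after LPS (log2 change -0.25, adjusted p = 0.261). Xrn2, the exonuclease that degrades the RNA left on the polymerase after the cut, changed by -0.33 (adjusted p = 0.423).

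Of the 3 poly(A)-binding proteins, Pabpc4 fell by its brightest probe set and the others did not pass. Pabpc4, a cytoplasmic protein that coats the tail, read 578.5, 603.8 and 551.5 in untreated cells, 300.2, 374.7 and 366.1 after LPS, and 521.3, 553.6 and 534.5 in the arrays labelled CstF-64 on its brightest probe set. All LPS arrays were lower than all 6 others. The log2 change was -0.72 (SE 0.11, limma adjusted p = 0.0022). The log2 change of its other probe set was -1.10 (SE 0.20, adjusted p = 0.0054), from 532.7, 476.2 and 390.7 to 148.5, 282.1 and 219.1. Pabpc4 was the only factor with 2 or more probe sets that were all called, and both calls held under every alternative run.

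Pabpc1, the main cytoplasmic poly(A)-binding protein, read 4076.4, 3805.1 and 4185.2 in untreated cells and 5558.1, 4417.2 and 4747.5 after LPS. Every LPS array was above every untreated array, yet the log2 change of 0.28 did not pass (SE 0.13, adjusted p = 0.179). The brightest probe set of Pabpn1, the nuclear protein that controls tail length during synthesis, read 1715.2, 1110.5 and 1372.1 in untreated cells and 1888.3, 1350.0 and 1399.2 after LPS. Those groups overlapped (log2 change 0.15, adjusted p = 0.670).

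**Figure D2:**
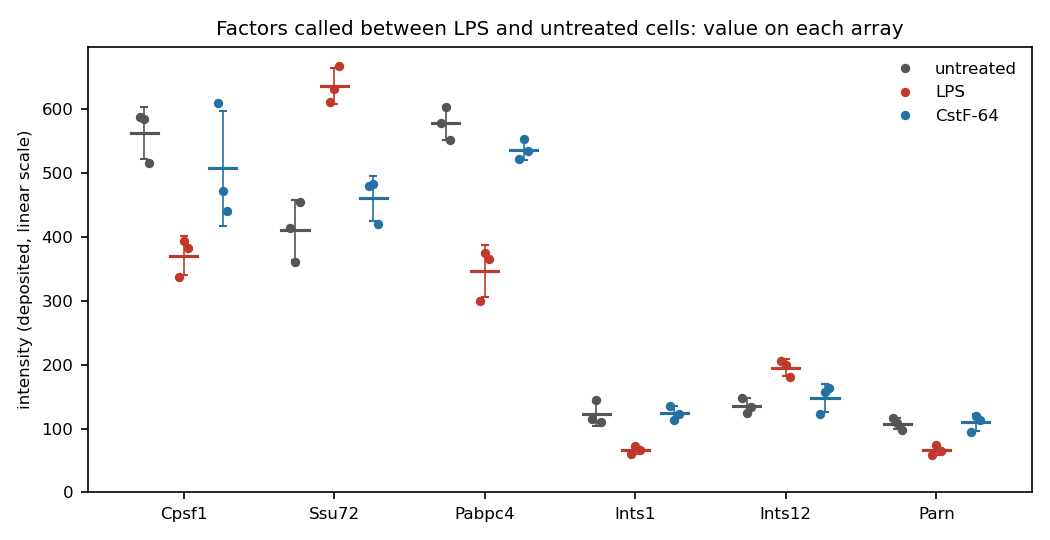
Deposited intensity, on a linear axis from 0, on each of the 9 arrays for the 6 factors called between LPS and untreated cells by their brightest probe set. For Ssu72 and Ints12 all 3 LPS arrays lie above the other 6, and for Pabpc4, Ints1, Parn and Cpsf1 all 3 lie below them.

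Integrator had 8 measured subunits with a median log2 change of -0.40 after LPS, of which 1 rose, 1 fell and 6 were below 0. Ints1, the largest subunit, read 114.4, 144.5 and 110.4 in untreated cells, 60.9, 72.7 and 66.7 after LPS, and 135.8, 113.4 and 122.4 in the arrays labelled CstF-64. The LPS arrays lay well below the others, whose groups overlapped. Its log2 change of -0.76 (SE 0.15, 95% interval -1.10 to -0.43, limma adjusted p = 0.0069) was called under every alternative run.

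Ints12, a small subunit with a PHD finger, went the other way. It read 147.8, 123.9 and 133.8 in untreated cells, 205.6, 200.0 and 180.6 after LPS, and 122.0, 156.9 and 163.0 in the arrays labelled CstF-64. The LPS arrays were above all others. The log2 change was 0.49 (SE 0.14, limma adjusted p = 0.0398), and the call was lost when any 1 untreated or LPS array was left out (adjusted p = 0.0561 to 0.138).

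A further 3 subunits were close to the threshold. Ints6, part of the module that carries protein phosphatase 2A, read 107.1, 98.5 and 90.7 in untreated cells and 68.2, 64.9 and 63.8 after LPS (log2 change -0.51, adjusted p = 0.0508). Ints4, which holds the catalytic subunits, read 123.7, 130.5 and 115.6 against 94.3, 92.0 and 82.9 (log2 change -0.41, adjusted p = 0.0546). Ints7 read 225.1, 236.6 and 218.5 against 94.5, 164.2 and 169.2 (log2 change -0.66, adjusted p = 0.0532). In all 3 the LPS and untreated groups did not overlap. All 3 were called when only probe sets whose mean over the 9 arrays was above background were tested. Ints9, the inactive partner of the catalytic subunit, changed by -0.34 (adjusted p = 0.201), Ints3, which also sits in a DNA repair complex, by -0.39 (adjusted p = 0.232), and Ints8, another subunit of the phosphatase module, by 0.18 (adjusted p = 0.577).

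Promoter sequence is shown for the Integrator subunits that moved in opposite directions and for Ssu72, the other gene that rose, so that the promoters of a falling and of the rising genes can be read side by side. Each is the 250 bases before the RefSeq transcript start in mouse build GRCm38.p6, written on the gene's strand. They lie at chr5:139775679-139775928 on the minus strand for Ints1, chr3:133091605-133091854 on the plus strand for Ints12 and chr4:155704565-155704814 on the plus strand for Ssu72. Capitals mark GC boxes, CCAAT boxes and ETS sites on either strand.
Ints1: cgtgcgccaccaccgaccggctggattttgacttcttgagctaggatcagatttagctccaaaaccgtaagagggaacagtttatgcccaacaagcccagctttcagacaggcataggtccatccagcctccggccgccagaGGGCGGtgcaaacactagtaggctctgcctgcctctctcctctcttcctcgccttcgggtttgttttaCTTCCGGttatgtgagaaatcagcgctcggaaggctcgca
Ints12: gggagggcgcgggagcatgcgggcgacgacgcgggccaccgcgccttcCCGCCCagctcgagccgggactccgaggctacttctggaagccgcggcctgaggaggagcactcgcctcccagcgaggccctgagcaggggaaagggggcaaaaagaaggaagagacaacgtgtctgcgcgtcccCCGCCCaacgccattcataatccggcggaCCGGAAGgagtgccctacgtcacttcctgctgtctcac
Ssu72: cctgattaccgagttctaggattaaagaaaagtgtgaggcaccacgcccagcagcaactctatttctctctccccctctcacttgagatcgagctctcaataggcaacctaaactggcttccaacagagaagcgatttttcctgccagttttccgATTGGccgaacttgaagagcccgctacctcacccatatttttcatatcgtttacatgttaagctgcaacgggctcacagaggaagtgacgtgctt

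Ints1 held 1 GC box and 1 ETS site, Ints12 held 2 GC boxes and 1 ETS site, and Ssu72 held 1 CCAAT box. Of the 33 measured factors, 27 matched a promoter in the RefSeq table, and 8 motifs were searched on both strands of the same window. Each factor entered with 1 promoter, whereas the 32851 promoters are all entries of that table and were not limited to measured genes. The GC box (GGGCGG) was found in 14 of 27 (51.9%), beside 32.7% of all 32851 promoters, and the CCAAT box, which has those 5 letters, in 11 (40.7%), beside 33.8%. The ETS site (CCGGAAG) was found in 4 (14.8%), beside 6.91%, and an NRF1 site in 5 (18.5%), beside 3.74%. The TATA box (TATAAA) was found in 1, Pabpc4 (3.7%), beside 12.4% of all promoters. Of the motifs bound by factors that LPS activates, the NF-kappaB core (GGGNNTTCC) was found in 1, Cpsf7 (3.7%), beside 4.98%. The AP-1 site (TGANTCA) and the interferon response core (ISRE) were found in 0 of 27, beside 6.75% and 2.98%. A match describes letters in this window and is not a bound site.

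Of the tail-shortening enzymes, only Parn was called by its brightest probe set. PARN is a deadenylase that acts on mRNAs and also trims small non-coding RNAs. It read 115.8, 108.5 and 98.2 in untreated cells, 58.2, 73.8 and 65.6 after LPS, and 95.0, 119.6 and 113.9 in the arrays labelled CstF-64. All LPS arrays lay below all others. The log2 change was -0.61 (SE 0.15, limma adjusted p = 0.0199). The call was lost after quantile normalization (adjusted p = 0.0850), after median centring (adjusted p = 0.0708), and without untreated array 1 (0.0707), untreated array 2 (0.0704) or LPS array 3 (0.0550). The called probe set is of a type that can share probes with other transcripts. The other probe set of Parn, not of that type, changed by -0.57 (adjusted p = 0.0718).

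In the CCR4-NOT complex 0 of 6 measured subunits were called by their brightest probe sets, with a median log2 change of -0.08. Cnot6 and the related pair Cnot7 and Cnot8 encode its deadenylases. Cnot7 read 536.6, 443.3 and 539.8 in untreated cells and 656.1, 416.7 and 404.6 after LPS, so that the LPS arrays spanned the untreated range (log2 change -0.07, adjusted p = 0.877). Cnot6 changed by -0.19 (adjusted p = 0.387) and Cnot8 by -0.08 (adjusted p = 0.706). Cnot2 and Cnot3, which belong to the NOT module, changed by 0.08 (adjusted p = 0.807) and -0.41 (adjusted p = 0.129). For Cnot3 the groups did not overlap, with 205.5, 166.0 and 224.0 in untreated cells and 139.8, 149.6 and 146.7 after LPS. Cnot4, a ubiquitin ligase of the complex, changed by 0.11 (adjusted p = 0.789).

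LPS array 1 stood apart in several LPS response genes and in several factors. Nos2 read 1069.9 on it, against 143.5 and 182.0 on LPS arrays 2 and 3, and Il6 read 809.9 against 42.8 and 59.4. For Acod1 the LPS arrays were closer (4538.2, against 4406.1 and 3960.8). Among the factors, LPS array 1 was the highest of the 3 LPS arrays for 20 of the 33 genes and the lowest for 11. Xrn2 read 448.3 on it, against 292.4 and 207.6 on the other LPS arrays, and Cnot2 read 249.4 against 175.0 and 174.2. A second Cnot6 probe set read 522.0 against 260.3 and 230.9. Without LPS array 1, the count of factors lower after LPS was 6 in place of 4, with Clp1 and Ints4 added, and the count higher was 1 in place of 2. These 2 added genes are named after their values were seen. Over all probe sets, 2213 were called lower without that array, in place of 2414, and 1272 higher in place of 1341.

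Of the 33 genes, 21 had 2 or more probe sets, up to 5. Over the 74 probe sets, 3 rose and 14 fell after LPS, beside 5.93% and 10.7% of all probe sets, and 11 of these 17 were not the brightest of their gene. At least 1 probe set was called lower in 12 genes and higher in 3, beside 13.1% and 7.6% of all named genes; a gene with more probe sets has more chances to be counted here. The 8 genes called by a dimmer probe set were Cpsf2, Fip1l1, Pcf11, Pabpn1, Ints3, Cnot2, Cnot6 and Cnot8. In 11 of the 21 genes the probe sets had log2 changes of both signs, beside 40.2% of all 4956 genes with 2 or more probe sets, and most of these changes were not called. Which part of the transcript a probe set matches was not analysed here. Some probe sets are of a type that can share probes with other transcripts. They include the called ones of Parn, Cpsf2 and Cnot2 and the dimmer one of Pabpc4. The brightest probe sets of Cpsf3, Cnot7 and Ints3 are of this type too. Whether they read other RNA was not tested.

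**Figure D3:**
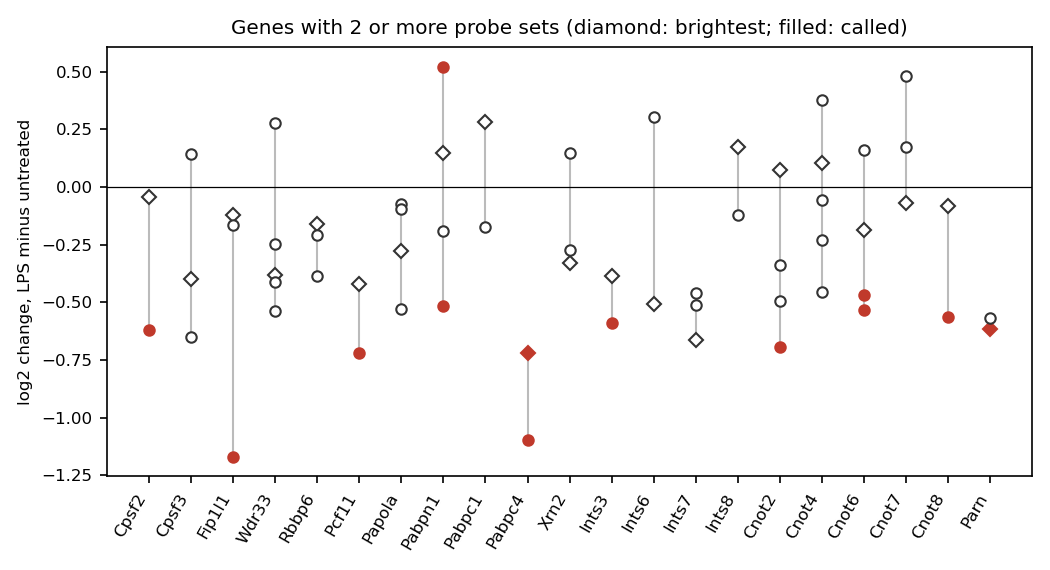
Log2 change between LPS and untreated cells of every probe set of the 21 factors with 2 or more probe sets. Diamonds are the brightest probe set of a gene and filled symbols are called; 11 genes have probe sets on both sides of 0, and Pabpn1 has a called probe set on each side.

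Pabpn1 had called probe sets in opposite directions. One read 930.8, 863.4 and 791.9 in untreated cells, 1198.4, 1299.1 and 1230.1 after LPS, and 968.4, 1139.5 and 1243.7 in the arrays labelled CstF-64, and it rose after LPS by 0.52 (SE 0.12, limma adjusted p = 0.0162). Another read 154.6, 202.3 and 185.3 in untreated cells, 125.7, 118.6 and 121.2 after LPS, and 178.2, 189.9 and 184.1 in the arrays labelled CstF-64, and it fell by 0.52 (SE 0.13, adjusted p = 0.0209). In both probe sets the LPS and untreated groups did not overlap. The rise lost its call under 4 of 17 alternatives and the fall under 7 of 17, both of them after quantile normalization (adjusted p = 0.0874 and 0.106) and without untreated array 2, untreated array 3 or LPS array 2. The diffSplice F test of limma, which asks whether probe sets of 1 gene change unequally, gave F = 9.58 for Pabpn1 (adjusted p = 0.0076). After quantile normalization it missed the threshold (adjusted p = 0.161), and also without untreated array 3 (adjusted p = 0.0921).

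Fip1l1 was the other of 2 genes called unequal among the 21, beside 5.85% of the 4956 genes tested. Its brightest probe set read 287.3, 245.5 and 207.6 in untreated cells and 211.3, 232.6 and 229.6 after LPS, and the groups overlapped. A dimmer probe set read 68.6, 83.2 and 78.1 in untreated cells, 13.0, 44.8 and 28.8 after LPS, and 54.7, 87.6 and 97.0 in the arrays labelled CstF-64. Only 1 of its LPS arrays was above background and their mean of 28.9 was not, so it was called lower (adjusted p = 0.0223) but the size of the fall is not well measured. The F test gave 8.48 (adjusted p = 0.0373), and it took in a probe set that lay below background on all 9 arrays. It missed the threshold with a pseudocount of 1 (adjusted p = 0.110), after quantile normalization (0.0826) or median centring (0.0507), without any 1 untreated array (0.0610 to 0.208), and without LPS array 1 (0.131), LPS array 3 (0.0843), CstF-64 array 2 (0.0736) or CstF-64 array 3 (0.0587). Cnot2 came close in the same test (adjusted p = 0.0505).

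**Figure D4:**
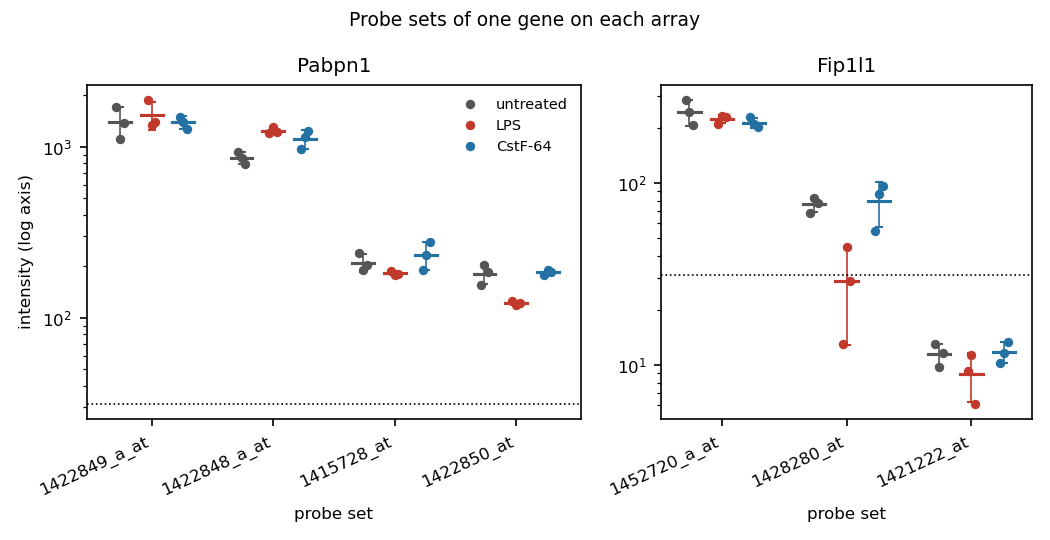
Intensity on a log axis on each of the 9 arrays for every probe set of Pabpn1 and Fip1l1, with the background limit of 31.2 as a dotted line. For Pabpn1 a called probe set has its LPS arrays above the untreated arrays and another called probe set has them below. A further Pabpn1 probe set that was not called also has them below. For Fip1l1 the LPS arrays separate from the untreated arrays in a dimmer probe set and overlap in the brightest.

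The remaining dimmer probe sets called after LPS all fell. Pcf11, the cleavage factor II subunit that binds the C-terminal domain of RNA polymerase II, read 65.0, 63.7 and 63.9 in untreated cells, 37.3, 31.2 and 33.3 after LPS, and 56.3, 68.5 and 73.2 in the arrays labelled CstF-64 on its dimmer probe set. The untreated arrays lay close together and the LPS arrays lay at or just above the background limit. That probe set fell by 0.72 (SE 0.15, adjusted p = 0.0106). It was called under every alternative run except the stricter adjusted p threshold of 0.01. The brightest probe set changed by -0.42 (adjusted p = 0.211).

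A probe set of Cpsf2 fell by 0.62 (adjusted p = 0.0170), from 86.5, 75.8 and 74.2 to 48.3, 45.6 and 46.1. Of Cnot6, 2 of 4 probe sets fell, by 0.53 (adjusted p = 0.0181) and 0.47 (adjusted p = 0.0243). Those were tight groups: the first read 439.4, 398.8 and 378.6 in untreated cells and 265.0, 293.1 and 270.6 after LPS. A probe set of Cnot2 fell by 0.69 (adjusted p = 0.0215), from 164.5, 130.9 and 101.6 to 75.0, 77.0 and 74.7. A probe set of Cnot8 fell by 0.56 (adjusted p = 0.0365), from 231.6, 228.9 and 187.8 to 113.7, 154.7 and 160.9. None of these groups overlapped. All LPS arrays of the called Ints3 probe set were below background, and it was at least 1.11-fold lower after LPS (adjusted p = 0.0328). Of the 17 called probe sets, 5 kept their call under every alternative run with the threshold unchanged, namely those of Ints1, Ssu72 and Pcf11 and both of Pabpc4. At an adjusted p of 0.01 the Pcf11 probe set lost its call (adjusted p = 0.0106). Those of Ints1, Ssu72 and Pabpc4 kept theirs. Quantile normalization and median centring each ended 9 of the 17 calls, and no called probe set changed sign under any alternative run.

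In the arrays labelled CstF-64, 0 of the 33 factors and 0 of the 74 probe sets were called against untreated cells by limma. Of all named genes 0.105% were called higher and 0.169% lower, and of all probe sets 0.102% and 0.146%. At an unadjusted limma p under 0.05 there were 0 of the 33 genes higher and 1 lower, Cpsf2. The share of all genes at that unadjusted threshold was not counted, so this count is not read as a result. The median log2 change of the 33 genes was 0.00, beside 0.01 over all genes, and the changes ran from -0.46 to 0.22. The 95% intervals of the 33 changes lay between -0.83 (lower bound for Cpsf2) and 0.67 (upper bound for Cnot7). A change that missed the threshold is not shown to be absent, and each gene's own interval gives the sizes that its arrays allow.

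The brightest probe set of Cpsf2 read 344.3, 258.1 and 246.2 in untreated cells and 231.7, 177.4 and 192.8 in the arrays labelled CstF-64. After LPS it read 234.7, 289.6 and 292.1. All arrays labelled CstF-64 were below all untreated arrays, and they were below all LPS arrays as well. The log2 change against untreated cells was -0.46 (SE 0.16, unadjusted p = 0.0178, limma adjusted p = 0.608). Groups that did not overlap were found for 2 genes lower, Cpsf2 and Cpsf3, and 0 higher, beside 6.02% and 7.41% of all genes. The Pabpn1 probe set that rose after LPS had a log2 change of 0.37 in the arrays labelled CstF-64 (unadjusted p = 0.0137, adjusted p = 0.555). No factor was called for unequal probe sets in this comparison, and 0 of the 4956 genes were. The smallest unadjusted p among the factors was 0.0492, for Cpsf3.

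Set directly against the LPS arrays, the arrays labelled CstF-64 had 4 factors higher and 1 lower of 33, beside 9.51% and 6.38% of all genes. Those higher were Pabpc4 (log2 difference 0.62, limma adjusted p = 0.0054), Ints1 (0.78, adjusted p = 0.0068), Parn (0.63, adjusted p = 0.0185) and Ints6 (0.65, adjusted p = 0.0189), and Ssu72 was lower (-0.46, adjusted p = 0.0271). Ints6 read 129.9, 91.4 and 113.0 in the arrays labelled CstF-64, all above its LPS arrays. This comparison uses the same LPS arrays as the one with untreated cells. Without LPS array 1 the count higher was 8, and without LPS array 3 or CstF-64 array 3 it was 2. Over all probe sets those 3 settings gave 2067, 1423 and 1239 higher, in place of 2133. The call of Ssu72 was lost without LPS array 2 or 3 or CstF-64 array 2 or 3. The call of Ints6 was lost under 7 of 18 alternatives, among them both other scalings and leaving out LPS array 3, CstF-64 array 1 or CstF-64 array 3. With the mean of all its probe sets the difference was 0.22 (adjusted p = 0.435), and its dimmer probe set had a difference of -0.21 (adjusted p = 0.635). The call of Parn was lost under 6 of 18, among them both other scalings and leaving out LPS array 3, CstF-64 array 2 or CstF-64 array 3.

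Other genes of the same pathways were counted from lists, again by the brightest probe set, and 0 were called in any of 5 lists between the arrays labelled CstF-64 and untreated cells. Against the LPS arrays, the arrays labelled CstF-64 had 4, 0, 4, 2 and 4 genes higher and 0 lower in the 5 lists, in the order given here. Of 17 other cleavage and polyadenylation genes, 0 rose and 3 fell after LPS (median log2 change -0.13). These were Cstf2, which fell by 0.74 (adjusted p = 0.0034) to 220.5, 248.1 and 195.9, and Cstf1, another subunit of the cleavage stimulation factor, which fell by 0.72 (adjusted p = 0.0052). The third, Cstf2t, a paralog of Cstf2, fell by 0.44 (adjusted p = 0.0456) and was named after its value was seen. Of 6 other Integrator genes, 0 were called by limma, and their median was -0.32.

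Of 16 other deadenylation genes, 2 rose and 4 fell. Btg1, which binds the CCR4-NOT deadenylases, rose by 0.90 (adjusted p = 0.0098), and Noct, a relative of the CCR4 deadenylases, rose by 0.77 (adjusted p = 0.0307). Tob1, an adaptor of the same complex, fell by 0.92 (adjusted p = 0.0058), as did Angel2, by 0.85 (adjusted p = 0.0074), and, named after their values were seen, Tob2 and Toe1. Of 13 decapping and 5′ to 3′ decay genes, 0 rose and 4 fell, with Lsm2, of the LSM ring that binds shortened tails, down by 1.60 (adjusted p = 0.0024) and Lsm3 down by 0.53 (adjusted p = 0.0251); Eif4enif1 and Dcps were the others, named after their values were seen. Of 16 exosome genes, 0 rose and 5 fell, with the helicase Mtrex down by 1.10 (adjusted p = 0.0044) and Zcchc8, its partner in nuclear decay, down by 1.02 (adjusted p = 0.0069); Dis3, Exosc5 and Wdr61 were the others, likewise named after their values were seen. Over all named genes the shares called were the 6.67% higher and 10.4% lower given above.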

How the data were processed

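Total RNA of RAW 264.7 cells was hybridised to 9 Affymetrix mouse arrays, 3 per group, by a university core facility, per the labels' protocols. The values deposited by the authors are intensities on a linear scale, 1 per probe set and array; the sources used here do not name the software that made them. Values were kept as deposited and transformed to log2(intensity + 13), which understates changes of dim probe sets. Limma 3.58.1 (lmFit, eBayes with trend) in R 4.3.3 fitted all 9 arrays with a mean per group; two-sided p-values were Benjamini-Hochberg adjusted over 22626 probe sets, and called means an adjusted p under 0.05. DiffSplice F tests covered the 4956 genes with 2 or more probe sets. The fits were tested on simulated data. The exact permutation test of 3 against 3 arrays cannot go below 0.1 and was not used. The number of arrays limits the precision.

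Genes came from the platform annotation, with symbols updated through RefSeq (20380 probe sets with 1 gene, 691 with several, 1555 with none). The members and lists were chosen with earlier results of these data known. All members could be named, by the brightest probe set, those called against untreated cells with every array's value; other probe sets were named where their call or direction differed or the F test passed, and up to 2 called genes each way per other pathway list. Replicate numbers were not taken as pairs. Alternatives were other scalings, pseudocounts, probe set choices and thresholds, the replicate block and leaving out each array.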

Additional observations from a re-analysis of the deposited data

How the results depend on the processing

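Of the 6 genes called after LPS, 3 kept their call under every alternative (Ssu72, Pabpc4, Ints1), and of the 5 called between arrays labelled CstF-64 and LPS arrays 2 did. No count for CstF-64 against untreated cells left 0. The 2 genes higher after LPS became 1 with the replicate block (Ints12 was lost, adjusted p = 0.0669) and 1 at an adjusted p of 0.01, and ran from 1 to 2 when 1 array was left out. The 4 lower became 2 after median centring and 2 at 0.01, and ran from 2 to 6 without 1 array. They became 7 with only probe sets of mean intensity above background, and 8 with the mean of all probe sets of a gene. Over all probe sets, 2666 of 13592 were called lower with that background filter, beside 2414 of 22626 in the main fit. Median centring left 1455 of 22626 lower. For the mean of all probe sets no count over all genes was taken, in this or the other comparisons. The 4 higher in CstF-64 than LPS arrays became 2 after quantile normalization, after median centring, with only those groups in the fit and at 0.01, 8 with the mean of all probe sets, and 2 to 8 without 1 array; the 1 lower became 2 after either scaling, 0 at 0.01 and 0 to 1 without 1 array. The 2 genes with unequal probe sets became 0 after quantile normalization, 1 after median centring, 1 with a pseudocount of 1, 4 with one of 50, and 1 to 3 without 1 array. The replicate block changed no other call against untreated cells and added Wdr33 to the genes higher in CstF-64 than LPS arrays (5 in place of 4). Deviations of same-numbered arrays from their group means correlated at -0.126 to 0.245, and not every array correlated best with its own number, so the numbers are not treated as pairing. Beyond the number of genes or arrays that an alternative itself removes, the cause of these differences was not tested. Probe sets near the background limit of 31.2 carry the least information.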
